A study of Homo sapiens with 3 samples.

Results

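The family of miR-130, miR-301 and miR-454 was examined in small RNA libraries of Flp-In T-REx 293 cells, a line derived from the human embryonic kidney line HEK293. Its members were chosen by name, as both arms of the hairpins hsa-mir-130a, hsa-mir-130b, hsa-mir-301a, hsa-mir-301b and hsa-mir-454, a rule that uses no measured value. They make up 10 of the 2580 endogenous mature miRNAs listed, of which 1351 had any count. Cells of all groups were transduced with a lentiviral vector and kept in Geneticin at 1 mg/mL for 6 days, after which its concentration was lowered. They were exposed to doxycycline at 1 ug/mL for 7 days. The control cells carried the vector without a hairpin, the miR-1 cells a vector with a synthetic miR-1 hairpin, and the miR-122 cells one with a synthetic miR-122 hairpin, each in the intron of a GFP reporter under an inducible CMV promoter. The control therefore received the drug too, and the lines were selected populations. There was 1 library for each group, so no difference has a replicate check, no test between conditions was possible, and every interval is a 95% interval that covers counting error only. Where 3 values follow each other without a name, they stand in the order control, miR-1, miR-122.

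A miRNA hairpin is cut by Drosha and Dicer into a duplex whose arms are named 5p and 3p. Usually one arm is retained by an Argonaute protein as the guide, and bases 2 to 8 of that guide, the seed, pair with target mRNAs. Human miRNAs of this family share a seed on the 3p arm and are therefore expected to recognise overlapping sets of mRNAs. In other systems miR-130a has been linked to angiogenesis through the homeobox genes MEOX2 and HOXA5, miR-130b to repression of the adipogenic receptor PPARG, and miR-301a to NF-kB signalling.

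The sequences show what the members share and what they do not. RefSeq sequences (GRCh38.p14) were matched for 8 of the 10 arms, the others being miR-130a-3p and miR-301b-5p. The 3p arms are printed first because they define the family, with the seed in capitals.

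miR-130b-3p: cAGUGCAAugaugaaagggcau

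miR-301a-3p: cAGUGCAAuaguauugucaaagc

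miR-301b-3p: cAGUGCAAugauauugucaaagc

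miR-454-3p: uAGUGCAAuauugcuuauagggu

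All 4 carry the seed AGUGCAA. miR-301a-3p and miR-301b-3p are identical at 21 of 23 positions and differ by A10G and G11A, where positions are counted from the 5′ end and the base of miR-301a-3p is given first. miR-130b-3p and miR-301b-3p share their first 12 bases and then diverge. miR-454-3p differs from the others in its first base, outside the seed, and diverges from them after the seed. Without gaps it matches miR-301a-3p at 13 of 23 positions, miR-301b-3p at 12 of 23 and miR-130b-3p at 10 of 22. The 5p arms are printed with the same positions in capitals, and none of them carries the family seed.

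miR-130a-5p: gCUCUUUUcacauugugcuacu

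miR-130b-5p: aCUCUUUCccuguugcacuac

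miR-301a-5p: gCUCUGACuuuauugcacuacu

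miR-454-5p: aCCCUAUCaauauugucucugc

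These 4 seeds all differ, those of miR-130a-5p and miR-130b-5p in their last base alone, so reads of the printed 5p arms belong to different seed families. The letters UUGCACU, the reverse complement of the family seed, occur in miR-130b-5p and miR-301a-5p from position 13 and not in miR-130a-5p or miR-454-5p. They occur in 8 of the 2370 human mature sequences that the RefSeq table holds, counted by the libraries or not, or 0.338%, when that strand alone is searched.

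The 5 hairpins lie at 3 loci (GRCh37). The hairpin hsa-mir-130a lies on chromosome 11 at 57408671 to 57408759 on the plus strand, inside MIR130AHG, a long non-coding RNA gene, and outside its exons. On chromosome 22, hsa-mir-301b at 22007270 to 22007347 and hsa-mir-130b at 22007593 to 22007674 are separated by 245 bases on the plus strand, within the same long non-coding RNA gene, ENSG00000207751. An annotated exon of that gene overlaps the last 44 bases of hsa-mir-130b and leaves hsa-mir-301b intronic. On chromosome 17, hsa-mir-454 at 57215119 to 57215233 and hsa-mir-301a at 57228497 to 57228582 lie 13263 bases apart on the minus strand, in intronic sequence of SKA2, which encodes a subunit of a kinetochore complex and is transcribed from the same strand. The hairpins hsa-mir-130b and hsa-mir-454 are printed because opposite arms dominate them, with both mature arms in capitals, 5p first.

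hsa-mir-130b: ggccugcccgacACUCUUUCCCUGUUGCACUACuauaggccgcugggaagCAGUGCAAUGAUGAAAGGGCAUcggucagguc

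hsa-mir-454: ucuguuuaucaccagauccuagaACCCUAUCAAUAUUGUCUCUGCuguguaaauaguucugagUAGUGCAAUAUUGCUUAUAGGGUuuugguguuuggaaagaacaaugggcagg

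The libraries held between 1636834 and 2892684 miRNA counts, of which between 1636481 and 1947669 were endogenous once the synthetic hairpins had been set aside. The labels were checked on the induced miRNAs: miR-1-3p had 166, 1100840 and 369 counts, and miR-122-5p had 10, 10 and 627576. A table of miRNAs holds no gene that defines HEK293 cells, so the cell line itself was not checked. One read stands for one mature miRNA whatever its length, so counts of different miRNAs can be set side by side, but they also differ in how well they ligate, which was not calibrated. Levels are given in CPM, counts brought to a common library size by scaling on endogenous miRNAs. In a bulk library a lower level in every cell and fewer expressing cells cannot be told apart.

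The family was a minor part of the miRNA pool, and most of its reads came from arms without the family seed. Both arms of the 5 hairpins had 3868 counts in control, 4395 with miR-1 and 4709 with miR-122. These were 0.236% (95% Wilson interval 0.229% to 0.244%), 0.245% (0.238% to 0.253%) and 0.242% (0.235% to 0.249%) of endogenous counts, and the intervals of all 3 libraries overlap. The 3p arms supplied 1220, 1165 and 996 of these counts. They made up 31.5% of the family's reads in the control library (30.1% to 33.0%), 26.5% with miR-1 (25.2% to 27.8%) and 21.2% with miR-122 (20.0% to 22.3%). The share of seed-bearing reads was thus highest in the control library and lowest in the miR-122 library, with intervals that do not overlap. Among 186 other endogenous hairpins with at least 100 counts in each library, the median 3p share had the same order, at 11.04%, 9.198% and 8.367%. This is a median over hairpins, not a share of summed reads, so the sizes cannot be set against each other. Taken hairpin by hairpin, the others changed little in common. Their median log2 change of the 3p to 5p ratio was -0.02 for miR-1 to control, with 97 of 186 below 0. For miR-122 to control it was -0.09, with 108 of 186 below 0. All 10 members had whole counts in every library, without the fractions that a read divided among hairpins can leave.

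**Figure D1:**
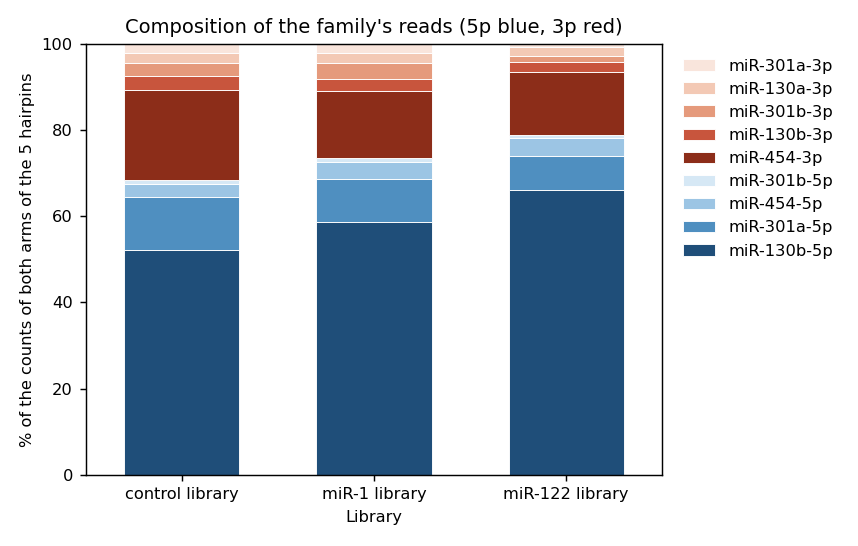
Percent of the counts of both arms of the 5 hairpins (y axis) that each mature miRNA took in each library (x axis), with 5p arms in blue and 3p arms in red. The bar of miR-130b-5p grows from 52.2% in the control library to 58.6% in the miR-1 and 66.0% in the miR-122 library, and the red 3p part shrinks from 31.5% to 26.5% and 21.2%.

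The most abundant member was miR-130b-5p, the arm opposite the one for which miR-130b is best known. It had 2020 counts in the control library, 2577 with miR-1 and 3109 with miR-122, and ranked 78, 70 and 69 among endogenous mature miRNAs. These were 1199, 1434 and 1653 CPM. The miR-122 library was highest and the control library lowest, and the counting intervals of the 3 libraries did not overlap. Its partner miR-130b-3p had 125, 123 and 100 counts and ranked 239, 249 and 261.

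The next member was miR-454-3p, which had 805, 689 and 695 counts and ranked 115, 131 and 131. It was the main carrier of the family seed. It supplied 66.0% of the 3p reads of the family in the control library (95% Wilson interval 63.3% to 68.6%), 59.1% with miR-1 (56.3% to 61.9%) and 69.8% with miR-122 (66.9% to 72.6%). The share of miR-301b-3p was 10.1%, 13.6% and 7.33%, so it was highest in the library where that of miR-454-3p was lowest.

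After miR-454-3p came miR-301a-5p with 476, 443 and 378 counts. The other members had low counts. miR-454-5p had 114, 171 and 192, miR-301b-3p had 123, 159 and 73, and miR-130a-3p had 89, 99 and 97. miR-301a-3p had 78 counts in the control, 95 in the miR-1 and 31 in the miR-122 library. miR-301b-5p had 38, 39 and 34 counts. No read of miR-130a-5p was counted in any library, where the upper ends of the 95% Poisson intervals were 2.19, 2.05 and 1.96 CPM. The first 3 places were the same in every library, and each of those members exceeded the next by more than counting error. In the control library, miR-130b-3p, miR-301b-3p, miR-454-5p, miR-130a-3p and miR-301a-3p followed each other without any neighbouring pair differing beyond counting error.

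**Figure D2:**
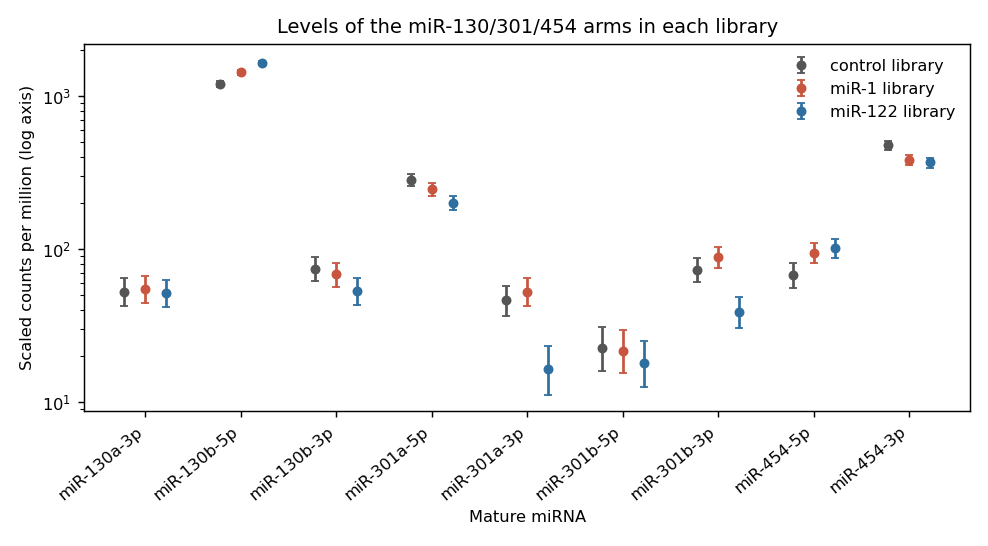
CPM on a log axis (y) of the 9 counted arms (x) in each group, 1 point per library with exact Poisson 95% counting intervals. miR-130b-5p stands highest in each library, at 1199, 1434 and 1653, and miR-301a-3p drops from 46.3 in the control library to 16.5 in the miR-122 library.

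The arm that accumulated was not the same for the 5 hairpins. Of the reads of hsa-mir-130a, all were from the 3p arm, in 89, 99 and 97 reads, and the lower 95% Wilson bound was 95.9%, 96.3% and 96.2%. For hsa-mir-454 the 3p arm made up 87.6% in the control library (85.3% to 89.6%), 80.1% with miR-1 (77.3% to 82.6%) and 78.4% with miR-122 (75.5% to 80.9%). For hsa-mir-301b it made up 76.4% (69.3% to 82.3%), 80.3% (74.2% to 85.2%) and 68.2% (58.9% to 76.3%), with overlapping intervals. These 3 hairpins were 3p-dominant in every library.

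The other 2 hairpins were 5p-dominant. For hsa-mir-301a the 3p arm made up 14.1% of reads in the control library (11.4% to 17.2%), 17.7% with miR-1 (14.7% to 21.1%) and 7.58% with miR-122 (5.39% to 10.6%). For hsa-mir-130b it made up 5.83% (4.91% to 6.90%), 4.56% (3.83% to 5.41%) and 3.12% (2.57% to 3.78%), which is 16.2 reads of miR-130b-5p for each read of miR-130b-3p in control and 31.1 with miR-122. Dominance of the 5p arm was common in these libraries: among 186 other endogenous hairpins with at least 100 counts over both arms in each library, the 5p arm held most reads in 113, 112 and 113, or 60.8%, 60.2% and 60.8%. The paralogues hsa-mir-301a and hsa-mir-301b thus differed in arm use, since hsa-mir-301a was 5p-dominant and hsa-mir-301b 3p-dominant. Their 3p arms differ at 2 positions. Their 5p arms and hairpins were not compared, because no sequence was matched for those of hsa-mir-301b.

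**Figure D3:**
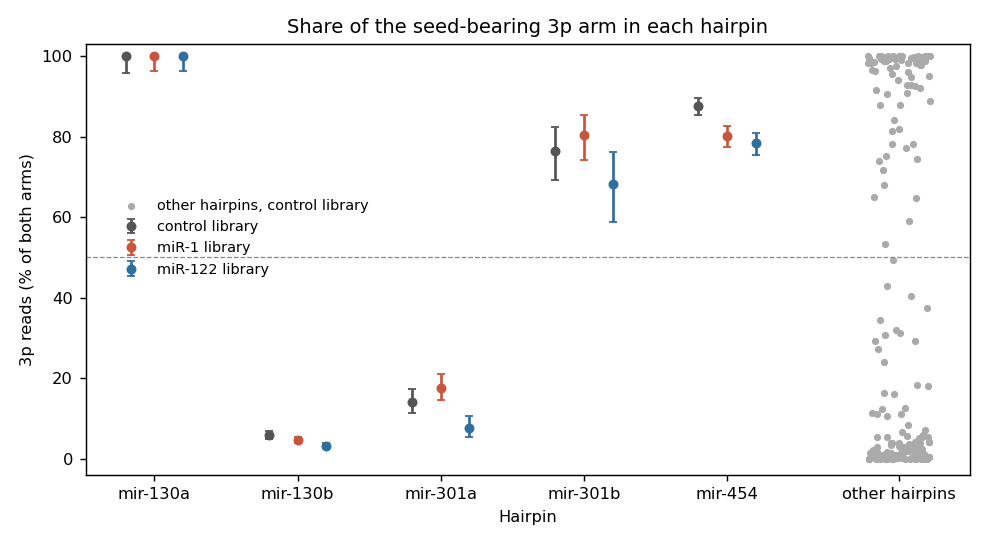
Share of 3p reads among the reads of both arms (y axis, percent) for each hairpin of the family (x axis) in each library, with 95% Wilson intervals, beside the 186 other hairpins in the control library in grey. hsa-mir-130b and hsa-mir-301a lie below the dashed 50% line in every library, at most 17.7%, and the other 3 hairpins lie above it, at least 68.2%.

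Hairpins of one locus can be cut from one primary transcript, so their reads were set against each other within each library, a ratio that does not depend on scaling. At the chromosome 22 locus the 3p arms did not differ beyond counting error in control, and lay on opposite sides of equality in the other libraries. miR-130b-3p had 1.02 reads for each read of miR-301b-3p in the control library (95% interval 0.786 to 1.31), 0.774 with miR-1 (0.606 to 0.985) and 1.37 with miR-122 (1.003 to 1.88). The 5p arms were far apart, with 53.2, 66.1 and 91.4 reads of miR-130b-5p for each read of miR-301b-5p. The larger total of hsa-mir-130b thus came from its 5p arm.

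At the chromosome 17 locus miR-454-3p exceeded miR-301a-3p. There were 10.3 reads of miR-454-3p for each read of miR-301a-3p in the control library (95% interval 8.17 to 13.2), 7.25 with miR-1 (5.85 to 9.09) and 22.4 with miR-122 (15.6 to 33.3). The 5p arms were ordered the other way, with 4.18, 2.59 and 1.97 reads of miR-301a-5p for each read of miR-454-5p. With both arms added, hsa-mir-454 had 1.66, 1.60 and 2.17 reads for each read of hsa-mir-301a, so that in control and with miR-1 the totals of the 2 hairpins were closer than either arm. With miR-122 the 5p arms were closer than the totals.

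The libraries were then compared to ask whether endogenous members differed in the presence of an induced miRNA. The comparisons with control share the control library, and values for each are given side by side. Ratios are relative to endogenous miRNAs. Scaling to all counts, induced miRNAs included, shifts every log2 ratio by -0.73 for the miR-1 and -0.50 for the miR-122 library, so each ratio to control between 0 and that size changes sign under it. The sum of both arms in miR-1 cells was 1.07-fold that of control (log2 ratio 0.09, 95% interval 0.03 to 0.15) and 1.09-fold in miR-122 cells (log2 0.12, 0.06 to 0.19), and both values fall below 0 with scaling to all counts. That sum hid opposite differences of the summed 3p arms and the summed 5p arms, which not every member followed. The 3p arms together stood at 724, 648 and 530 CPM. Their log2 ratio to control was -0.16 for miR-1 (-0.28 to -0.04) and -0.45 for miR-122 (-0.57 to -0.33). The 5p arms stood at 1572, 1797 and 1974, with log2 ratios of 0.19 (0.12 to 0.27) and 0.33 (0.26 to 0.40), which also fall below 0 under that scaling. The single arm miR-130b-5p carried the sum: without it both arms gave -0.12 (-0.21 to -0.02) and -0.37 (-0.46 to -0.27). Under scaling on endogenous miRNAs the members did not divide strictly by arm. Of the 5p arms, miR-301a-5p was lower than control in both libraries (log2 -0.20 and -0.49), while miR-130b-5p and miR-454-5p were higher. The interval of miR-301b-5p spanned equal levels in both. Of the 3p arms, miR-454-3p alone lay below control beyond counting error in the miR-1 library.

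Between the miR-1 and control libraries no member differed by 2-fold. That was 0 of 9 members with a mean count of at least 10, beside 3.31% of the 514 endogenous miRNAs past that filter. Counting intervals lay above equal levels for 2 of 9 members (14.4% of all) and below for 2 of 9 (20.0% of all). The members above were miR-454-5p (log2 0.49, 0.14 to 0.85) and miR-130b-5p (log2 0.26, 0.17 to 0.34), both of which fall below 0 with scaling to all counts, and those below were miR-454-3p (log2 -0.32, -0.47 to -0.17) and miR-301a-5p (log2 -0.20, -0.39 to -0.01). The median log2 ratio of the 9 members was 0.06, beside -0.0021 for all 514. The members' counts of calls were near those of all miRNAs in this comparison.

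Between the miR-122 and control libraries the differences were wider. Of 9 members, 1 was past 2-fold, beside 9.73% of all 514 miRNAs. It was miR-301a-3p, whose scaled level was 46.3 CPM in control and 16.5 in the miR-122 library, or 2.78-fold lower (log2 -1.48, 95% interval -2.14 to -0.87), a value below which 2.33% of all miRNAs lay. Its close paralogue miR-301b-3p was next, 1.88-fold lower (log2 -0.91, -1.35 to -0.48). Counting intervals lay below equal levels for 5 of 9 members, where 25.3% of all miRNAs did, and above for 2 of 9, where 21.8% did.

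The remaining members below were miR-301a-5p (log2 -0.49, -0.69 to -0.29), miR-130b-3p (log2 -0.48, -0.87 to -0.09) and miR-454-3p (log2 -0.37, -0.52 to -0.22). Those above were again miR-454-5p (log2 0.59, 0.25 to 0.94) and miR-130b-5p (log2 0.46, 0.38 to 0.54), of which the latter falls just below 0 with scaling to all counts, and the former to 0.095, with an interval that then spans equal levels. The intervals of miR-130a-3p (log2 -0.04, -0.46 to 0.40) and miR-301b-5p (log2 -0.32, -1.03 to 0.39) spanned equal levels. Of the 5 counted 3p arms, 4 were thus below and none above, and the median over the 9 members was -0.37, beside -0.04 for all 514 miRNAs, whose middle part between the quartiles ran from -0.37 to 0.33.

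**Figure D4:**
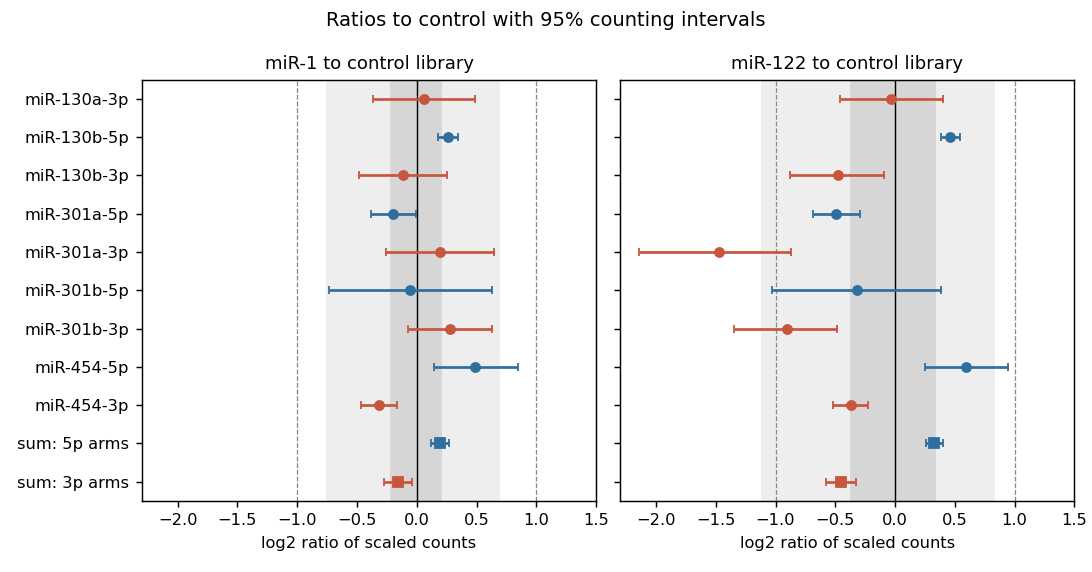
Log2 ratios of scaled counts to control (x axis) for the 9 counted arms and the summed arms (y axis), with 95% counting intervals, for the miR-1 library (left) and the miR-122 library (right). Blue marks 5p and red 3p arms, squares the sums, dashed lines 2-fold, and the dark and light grey bands the quartiles and the central 90% of all 514 miRNAs. miR-301a-3p, at -1.48 in the miR-122 panel, is the sole member past a dashed line.

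Set directly against each other, the miR-1 and miR-122 libraries differed past 2-fold in 2 of 9 members, beside 8.56% of all miRNAs. They were miR-301a-3p, 3.17-fold higher in the miR-1 library (log2 1.67, 95% interval 1.08 to 2.32), and miR-301b-3p, 2.27-fold higher (log2 1.18, 0.78 to 1.61). Intervals lay above equal levels for 3 of 9 members (20.6% of all) and below for 1 of 9 (18.7% of all). The other member above was miR-301a-5p (log2 0.29, 0.09 to 0.50), and the one below was miR-130b-5p (log2 -0.20, -0.28 to -0.13).

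Arm use was also compared between libraries hairpin by hairpin, as the log2 change of the 3p to 5p ratio, which needs no scaling. In the miR-122 library it was -0.99 for hsa-mir-301a (95% interval -1.61 to -0.36), -0.96 for hsa-mir-454 (-1.33 to -0.60), -0.94 for hsa-mir-130b (-1.33 to -0.56) and -0.59 for hsa-mir-301b (-1.37 to 0.19). All 4 values were below 0, toward the 5p arm, the last within counting error. The median over the 186 other hairpins was -0.09, with quartiles at -0.60 and 0.53, and 108 of 186 lay below 0. In the order given, 13.4%, 14.5%, 15.1% and 25.8% of the other hairpins lay below the 4 values. In the miR-1 library the change was -0.81 for hsa-mir-454 (-1.18 to -0.44), below which 7.53% of the other hairpins lay, and -0.37 for hsa-mir-130b (-0.74 to -0.01). It was 0.39 for hsa-mir-301a (-0.08 to 0.86) and 0.33 for hsa-mir-301b (-0.39 to 1.06), within counting error.

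Base composition moved with the ratios of the miR-122 library. Over 452 miRNAs with a sequence, which share the libraries and differ in depth, Spearman's rho between GC content and the log2 ratio was 0.19 for the ratio of miR-122 to control and 0.06 for that of the miR-1 library. The median log2 ratio of miR-122 to control was -0.25 for the 104 miRNAs with at most 40% GC and 0.08 for the 219 with at least 50%. Among the members, miR-454-3p had 34.8% GC, miR-301a-3p and miR-301b-3p 39.1%, miR-130b-3p 45.5% and miR-130b-5p 47.6%. miR-301a-5p and miR-454-5p both had 40.9% and lay on opposite sides of 0. The part of base composition in the members' ratios was not tested.

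The family seed was then placed among all seeds by summing the counts of mature miRNAs with the same bases 2 to 8. Sequences covered 91.7%, 91.4% and 91.5% of endogenous counts, and miR-130a-3p was placed with the family by name. Other miRNAs without a sequence entered no seed sum, so the ranks leave them out. The table holds 2 more human miRNAs with this seed, miR-3666 and miR-4295, and neither was counted in any library. The family seed ranked 63 of 798 counted seeds in the control library, 64 of 811 in the miR-1 library and 76 of 804 in the miR-122 library. It stood between the seeds of miR-28-3p (1221 counts) and of 3 miRNAs led by miR-23b-3p (1166 counts) in control. The seed of miR-130b-5p alone, with no other counted miRNA among those with a sequence, ranked 53, 48 and 48, above the family seed in every library.

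**Figure D5:**
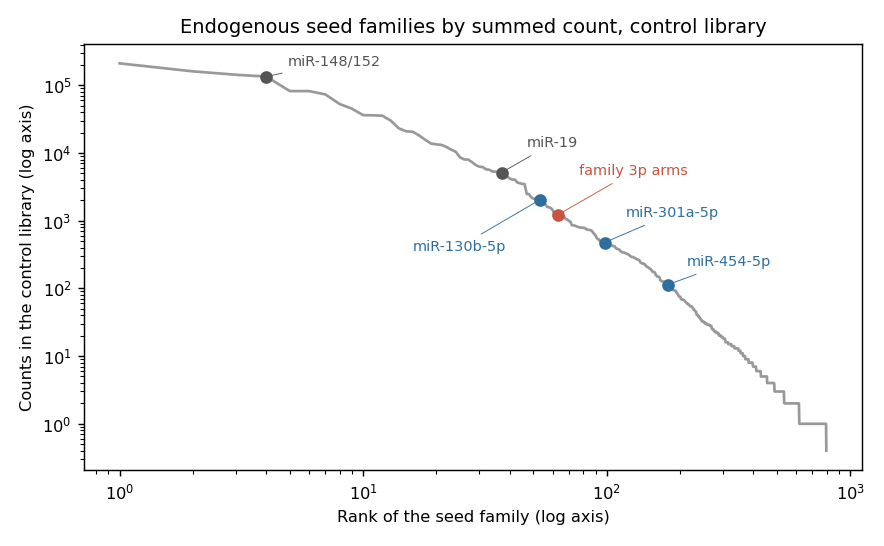
Summed counts in the control library (y, log axis) of endogenous seed families against their rank (x, log axis), with the family's 3p arms in red, single 5p arms of the family in blue and 2 related seed families in dark grey. The 3p arms together lie at rank 63 with 1220 counts, below miR-130b-5p at rank 53 with 2020.

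The miR-19 family and the family of miR-148 and miR-152 carry a shifted version of the same letters and had higher counts. miR-19 belongs to an oncogenic miRNA cluster, and miR-148 and miR-152 are known for targeting DNA methyltransferases. miR-19a-3p and miR-19b-3p share GUGCAA with the first 8 bases of miR-130b-3p, at positions 2 to 7 of their own sequence in place of 3 to 8. miR-148a-3p, miR-148b-3p and miR-152-3p share CAGUGCA, displaced by 1 base in the other direction. They are printed to show the shift, with bases 2 to 8 in capitals.

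miR-19b-3p: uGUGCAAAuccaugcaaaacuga

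miR-130b-3p: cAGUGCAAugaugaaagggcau

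miR-148a-3p: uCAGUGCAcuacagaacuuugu

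The seed of miR-148 and miR-152 had 134463, 149664 and 183838 counts, and the miR-19 seed had 5131, 5330 and 3255, against 1220, 1165 and 996 for the seed AGUGCAA. In the miR-122 library miR-19a-3p (log2 -0.86, 95% interval -0.97 to -0.74) and miR-19b-3p (log2 -0.80, -0.87 to -0.72) were lower than in control, as were miR-148b-3p (log2 -0.43) and miR-152-3p (log2 -0.51), while miR-148a-3p was higher (log2 0.35), a direction lost with scaling to all counts. In the miR-1 library the 5 related miRNAs ran from -0.23 for miR-148b-3p to 0.28 for miR-152-3p. The miRNAs outside the family whose pair of log2 ratios to control lay nearest to that of the family sum, among 107 with a mean count of at least 1000, were miR-28-3p, miR-744-5p and miR-16-2-3p, at Euclidean distances of 0.022, 0.028 and 0.057 over the 2 ratios.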

How the data were processed

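Small RNA was sequenced from 1 library per group. The authors trimmed adapters, collapsed identical reads and counted mature miRNAs with miRDeep2 on miRBase hairpins to which their synthetic hairpins had been added. The deposited values are estimated counts per mature miRNA and hairpin, with reads that map to several hairpins divided among them. The RPM that the authors deposited are scaled to all miRNA reads, and they matched the counts over the library total to within 0.00652 RPM. A pooled total column was not used here. The labels name hg19, and no version of miRDeep2 is given in the sources used here.

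Counts were summed over hairpins, miRNAs not made from the 5 synthetic hairpins were called endogenous, and libraries were scaled by TMM (edgeR 4.0.16, R 4.3.3) on the 514 with a mean count of at least 10. Log2 ratios used a pseudocount of 0.5 and intervals an exact conditional binomial on rounded counts; no ratio was formed where both libraries held at most 3 counts. Shares carry Wilson intervals, levels exact Poisson intervals, and changes of arm ratios a normal interval on the log scale. For a count of 0 the limit given is the upper end of the exact Poisson interval. Reads carried no molecular identifiers. Called means past 2-fold or with an interval that leaves out equal levels. The script was tested on simulated data. Members and lists were chosen with earlier results of these data known.

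The miRNAs named are the members, others with their seed, the related miR-19 and miR-148 and miR-152 list, the seed families next in rank, and the 3 nearest in pattern. Sequences come from RefSeq (GRCh38.p14), and 2275 of 2580 mature names matched. Positions are on GRCh37, from exact matches of RefSeq hairpins, or from GENCODE v44lift37 for hsa-mir-301b. Alternatives covered scaling, filter, pseudocount, fold limit, arms, denominator and combining of hairpins; DESeq2 1.42.0 gave one scaling.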

Additional observations from a re-analysis of the deposited data

Results flagged for a closer look

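The ratios of 2 members to control had opposite signs under miR-1 and under miR-122, and the direct ratio of these libraries lay beyond counting error. miR-301a-3p had log2 ratios to control of 0.19 in the miR-1 (95% interval -0.26 to 0.64) and -1.48 in the miR-122 library, and a log2 ratio of miR-1 to miR-122 of 1.67. For miR-301b-3p these values were 0.28 (-0.07 to 0.63), -0.91 and 1.18. Both ratios of miR-1 to control thus lay within counting error of equal levels. With scaling to all counts the ratios of miR-1 to control were -0.54 for miR-301a-3p and -0.45 for miR-301b-3p, so the signs were no longer opposite, while the direct ratios were 1.43 and 0.95. With 1 library per group, the difference between conditions was not tested.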

How the results depend on the processing

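A total of 3 alternatives were chosen after seeing the data: the 5p arms alone, and the share and the ratio without miR-130b-5p. No paired analysis was possible because there was a single library for each vector. Of 276 alternative values, 217 stayed within the counting interval or limit of their result. Among the 217 are the 3p arm shares with counts rounded to whole reads. Those could not differ, since all members had whole counts. Dividing by all counts, induced miRNAs included, shifted every log2 ratio by -0.73 for miR-1 to control and -0.50 for miR-122 to control. Under it the family sum was -0.64, -0.37 and, for miR-1 to miR-122, -0.27, miR-130b-5p was -0.47 and -0.033 to control, and miR-454-5p was -0.24 in miR-1 to control. Of the 162 single-member values under the other settings, 161 stayed within the interval and none reversed. Except for the pseudocount, those settings shift every log2 ratio of a comparison by the same amount, at most 0.092 in size. They are therefore not separate checks of each member.

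The family sum depended on which arms were included. The first value is for miR-1 and the second for miR-122, both to control, and the last sets miR-1 against miR-122. With 3p arms alone it was -0.16, -0.45 and 0.29, with 5p arms alone 0.19, 0.33 and -0.14, and without miR-130b-5p -0.12, -0.37 and 0.25. Scaling by the endogenous total gave 0.033 for miR-122 to control. The family's share in control, miR-1 and miR-122 was 0.0746%, 0.0650% and 0.0511% for the 3p arms, which is also the value for all miRNAs with the seed, 0.113%, 0.101% and 0.0821% without miR-130b-5p, and 0.275%, 0.283% and 0.280% when the highest hairpin value replaced the sum. Of all counts it was 0.152% in the miR-1 and 0.183% in the miR-122 library.

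Counts past a fold limit are given here for miR-1 to control, then miR-122 to control, then miR-1 to miR-122. Members past 2-fold numbered 1, 2 and 1 of 9 when all counts were used for scaling, beside 21.01%, 19.65% and 8.95% of all 514 miRNAs. At a mean count of at least 100, which kept 6 members and left out miR-301a-3p, there were 0 between miR-122 and control, and 1 when miR-1 was set against miR-122. At 1.5-fold there were 3 of 9 between miR-122 and control, beside 27.04% of all 514 miRNAs. In the same order of comparisons, 17, 50 and 44 of all 514 miRNAs kept were past 2-fold in the main setting. With a pseudocount of 5 there were 7, 36 and 27. Of the same 514 there were 86, 139 and 119 at 1.5-fold, and 108, 101 and 46 with all counts. The other filters kept different numbers. Without a filter 426, 509 and 467 of 1351 miRNAs were past 2-fold, and 2, 10 and 8 of 263 at a mean of at least 100. With both arms summed, hsa-mir-130b had 13.3, 13.6 and 30.0 times the reads of hsa-mir-301b, and hsa-mir-454 had 1.66, 1.60 and 2.17 times those of hsa-mir-301a. Counts of 31 to 159 limit the ratios of the 3p arms other than miR-454-3p, and variation between cultures was not measured.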
